A study of Mus musculus with 16 samples.

Results

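Hearts in which Akt2 alone had been targeted in cardiomyocytes were compared with control hearts, on the 4 AKT2 KO and the 4 control arrays out of 16 in the series. Members were chosen by sample title alone, and every gene that passed the filter on dim probes entered the comparison, 13341 genes in all. Control mice were heterozygous for MHC-mercremer and carried no floxed Akt allele. AKT2 KO mice were heterozygous for MHC-mercremer and homozygous for AKT2 flox/flox, in which loxP sites flank exons 5 and 6. All 8 mice were C57Bl/6 males aged 3 months, and all received 500 µg of hydroxytamoxifen (OH-Tx) a day for 5 days. Hearts were taken 21 days after induction, and RNA came from the apex. The titles read "untreated", whereas the protocol names the hydroxytamoxifen injections and no further treatment. The αMHC promoter drives the recombinase in cardiomyocytes, so that other cells of the heart keep Akt2. The labels do not say how the mice were related, so p-values measure the spread between these samples.

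AKT2 is 1 of the AKT serine/threonine kinases, which are recruited to the membrane when insulin or growth factors activate PI3-kinase. It is the form best known for insulin-stimulated glucose uptake, through the phosphorylation of TBC1D4 and the movement of GLUT4 to the cell surface. AKT kinases also inhibit GSK3 and the FoxO transcription factors and activate mTORC1. AKT1 is the form more often linked to growth and survival of cardiomyocytes.

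Levels below are log2 intensities relative to the 75th percentile of the array, so that a level of 0 is as bright as that percentile and a difference of 1 is 2-fold. The 75th percentile of the intensity lay between 606.6 and 720.5 in control arrays and between 582.2 and 731.3 in AKT2 KO arrays. Between 44.6% and 52.8% of probes were well above background in control arrays and between 45.9% and 54.0% in AKT2 KO arrays. The lowest correlation between any pair of the 8 arrays was 0.989, and no array stood apart. The median standard deviation of a gene was 0.0883 log2 units in control and 0.111 in AKT2 KO hearts (n = 4 each). Each of the 2 slides carried 2 arrays of each group. All control arrays lay in 1 column of the slides and all AKT2 KO arrays in another, so column and genotype cannot be told apart.

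The targeted transcript was lower in all 4 hearts labelled AKT2 KO. The brightest Akt2 probe read 4.92, 4.90, 4.83 and 4.98 in control hearts and 2.64, 2.43, 2.5 and 2.58 in AKT2 KO hearts. The groups were far apart, and Akt2 fell 5.17-fold (log2 change -2.37 ± 0.0602 SE, limma adjusted p = 4.36e-07). The other 2 Akt2 probes differed by -2.61 and -1.09. Each of the 3 probes gave an exact 2-sided permutation p of 0.0286, the smallest that 4 against 4 arrays allow. All 3 remained well above background in every AKT2 KO heart. Where they lie relative to the floxed exons is not known here. Because the apex holds cells other than cardiomyocytes, fewer cells with the transcript and less transcript per cell cannot be told apart in these bulk samples.

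Akt1, the isoform for growth and survival, did not pass the test. It had 2 probes that differed by 0.03 and -0.003 (exact permutation p = 0.6 and 0.971). The levels of the brightest Akt1 probe were 5.13 ± 0.0322 in control and 5.17 ± 0.104 in AKT2 KO hearts (SD, n = 4 each).

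Across the array 42 genes passed an adjusted p of 0.05, which is 0.315% of those tested. Of these, 20 were higher (0.15%) and 22 lower (0.165%) in AKT2 KO hearts, and 18 changed by at least 2-fold. The median log2 change over all genes was -0.02 and the median size of a change 0.08. An unadjusted p under 0.05 was found for 1591 genes (11.9%). For all 42 called genes the 4 AKT2 KO arrays lay on 1 side of the 4 control arrays, which was true of 1030 genes tested (7.72%). The same direction within each slide for all 42 follows from groups that do not overlap and is no further check. A block for slide gave 46 calls. With replicate number as a block 32 genes were called, 26 of them among the 42, and outside chromosome 7 only the calls of Lipa, C4a and 2310075K07Rik held. With 2 arrays a group, slide 1 alone gave 9 and slide 2 alone 5. The count was 24 without control replicate 1 and 27 without control replicate 4. With all 16 arrays of the series sharing 1 estimate of the spread it was 18. That fit ended every call outside chromosome 7 and, on it, those of Zfp30, Zfp790, Lgals4, Gpatch1, 1600014C10Rik, Josd2, Gys1, Car11, Grwd1, Tmem143, Nomo1, Kcnj11 and Abcc8. Ranges of adjusted p over a gene's alternatives, given below, leave out the fits of a single slide.

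Chromosome 7, which carries Akt2, held 31 of the 42 called genes. That is 2.91% of the 1066 genes tested there, 14 higher and 17 lower, against 11 of 12275 genes (0.0896%) on all other chromosomes. The 31 lay between 0.159 Mb before Akt2 and 18.6 Mb after it, by gene positions in GRCm38.p6. In that interval 257 genes were tested and 12.1% were called. Among the 579 chromosome 7 genes more than 19 Mb away none was called in this limma fit, 77 had an unadjusted p under 0.05, and 55 had groups that did not overlap (9.5%). The calls fell into clusters, with 11 among 82 genes from Blvrb to Alkbh6, 2 among 3 genes at 10.6 Mb and 17 among 89 genes from Klk1b26 to Ush1c. Between them lay 1 more call, Gpatch1 at 7.66 Mb, a gene named here after its value was seen. The interval and the clusters begin and end at called genes, and 19 Mb lies just past the last call. Those edges follow the calls, so these shares are no test. In fixed bins of distance, 6.18% of 178 genes within 5 Mb and 1.47% of 68 genes at 5 to 10 Mb were called. At 10 to 20 Mb it was 10.5% of 181 genes. No gene was called at 20 to 40 Mb (113 tested) or over 40 Mb (526 tested). The 12 genes called between 10 and 20 Mb with changes of at least 2-fold outnumbered the 5 within 5 Mb, Akt2 included. Genes beyond 19 Mb were called with normexp, quantile normalization, deposited values, averaged probes, array weights or a trended prior, within slide 2, and without AKT2 KO replicate 1, 2 or 4, the farthest at 68.9 Mb.

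**Figure D1:**
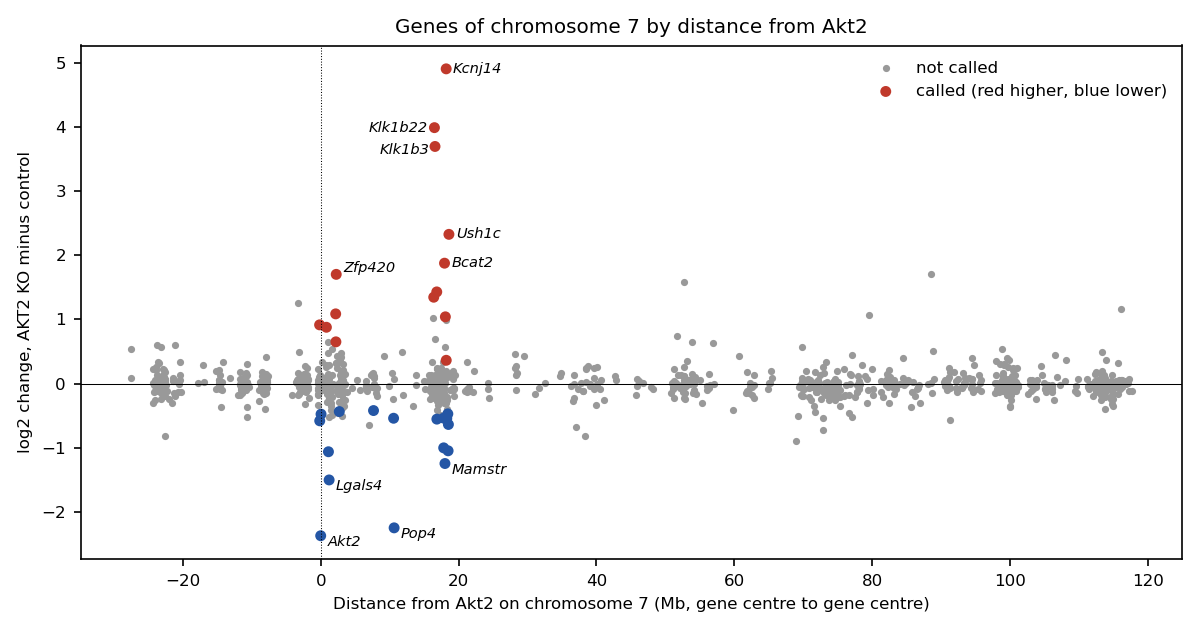
Log2 change between AKT2 KO and control hearts (y axis) of the 1066 chromosome 7 genes against the distance of each gene's centre from that of Akt2 in Mb (x axis), with called genes in red (higher) or blue (lower) and others in grey. The 31 called genes sit between -0.159 and 18.6 Mb, with rises and falls side by side.

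Next to Akt2 the calls went both ways. Blvrb, a biliverdin reductase that acts in heme breakdown, read 1.15, 1.15, 1.06 and 1.08 in control hearts and 2.07, 1.94, 2.03 and 2.07 in AKT2 KO hearts. It rose by 0.91 ± 0.0493 SE (limma adjusted p = 9.04e-05). Sertad3, a transcriptional coactivator in the same neighbourhood, fell by 0.58 ± 0.0652 SE (0.00968), a call lost without control replicate 1 (0.0528, with 0.00657 to 0.0769 over its alternatives). Map3k10, a kinase upstream of JNK and 0.0493 Mb from Akt2, had a log2 change of -0.48 on its brightest probe (0.0366) and of 0.06 and 0.11 on its other 2 probes. Its call ended with the replicate block (0.0826), with slide as a block, and without any array other than control replicate 3 (0.0676 to 0.154), with 0.0115 to 0.656 over its alternatives. The neighbours thus held a gene that rose in every heart, a gene that fell and a gene whose probes disagreed.

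Further out, Mrps12, a protein of the small mitochondrial ribosomal subunit, was 1.12 Mb from Akt2. It read 4.60, 4.53, 4.43 and 4.49 in control hearts and 3.55, 3.39, 3.40 and 3.46 in AKT2 KO hearts. The fall of 1.06 ± 0.0571 log2 units (SE, limma adjusted p = 9.04e-05) was the only call among 31 mitochondrial ribosomal genes. Lgals4, a galectin that binds galactose-bearing sugars, read 2.22, 2.38, 2.27 and 1.96 against 0.62, 1.28, 0.59 and 0.34. AKT2 KO replicate 2 was the highest of its group, and the groups did not overlap. Lgals4 fell 2.83-fold (0.0178), a call that needed control replicates 1, 2 and 3 and AKT2 KO replicates 1 and 3 (0.0583 to 0.0824 without 1 of them) and ended with the mean of its probes. Gmfg, an actin regulator of blood cells, rose by 0.88 ± 0.108 (0.014), a call that ended without any control array or AKT2 KO replicate 2 (0.0509 to 0.0694). Markers of other cells that moved beside it are given with the cell type lists.

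The zinc finger genes Zfp30, Zfp790 and Zfp420, about 2.2 Mb from Akt2, were higher in AKT2 KO hearts. Zfp30 read -0.06, 0.10, 0.06 and -0.03 in control hearts and 1.20, 0.94, 1.31 and 0.97 in AKT2 KO hearts, a rise of 1.09 ± 0.0897 (SE, limma adjusted p = 0.00139). Zfp420 rose by 1.70 ± 0.194 (0.00969), from a level that was well above background on only 1 control array, and the rise was 0.59 under normexp. Zfp790 rose by 0.65 ± 0.0901 (0.0279), and by 0.42 under normexp. The Zfp790 call was lost with the replicate block (0.0941), under quantile normalization and in 6 of 8 fits that left out an array, all but those without control replicate 1 or AKT2 KO replicate 4 (0.0755 to 0.119). These genes encode zinc finger proteins of the type that binds DNA. Alkbh6, of the AlkB demethylase family, closed this cluster at 2.70 Mb. It fell by 0.44 ± 0.0421 (0.00391), with 0.0604 under the replicate block and 0.000354 to 0.0604 over its alternatives.

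Pop4, a protein subunit of ribonuclease P, which trims the ends of transfer RNA precursors, stood 10.7 Mb from Akt2. It read 1.33, 1.33, 1.36 and 1.31 in control hearts and -1.02, -0.91, -0.88 and -0.86 in AKT2 KO hearts. The spread within a group was below 0.07 log2 units and the fall was 4.75-fold (log2 change -2.25 ± 0.0482 SE, limma adjusted p = 1.61e-07). The gene beside it without a proper name, 1600014C10Rik, fell by 0.54 (0.00968) and is named here after its value was seen. Its call ended with the replicate block (0.0669) and without control replicate 1 (0.0528), with 0.00151 to 0.0769 over its alternatives. Gpatch1, a G-patch protein, fell by 0.42 (0.00969), but not with the replicate block (0.057) or without control replicate 4 (0.0533), with 0.00345 to 0.0933 over its alternatives.

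The third cluster opened with tissue kallikreins, secreted serine proteases that lie in a tandem array of close copies. Klk1b26, Klk1b22 and Klk1b3 lay within 0.2 Mb of each other, 16.4 to 16.6 Mb from Akt2, and were higher in AKT2 KO hearts. The 200 bases before the annotated start of each are shown, because the 3 genes moved the same way here and their promoters are similar. Any part of these sequences in the changes was not tested. Sequences are from RefSeq, build GRCm38.p6, plus strand, chr7:44012478-44012677, chr7:44112473-44112672 and chr7:44197991-44198190, with capitals marking a TTTAAA match.
Klk1b26: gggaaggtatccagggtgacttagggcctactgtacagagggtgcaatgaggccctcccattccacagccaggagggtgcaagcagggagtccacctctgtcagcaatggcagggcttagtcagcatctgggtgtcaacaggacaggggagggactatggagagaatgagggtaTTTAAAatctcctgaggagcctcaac
Klk1b22: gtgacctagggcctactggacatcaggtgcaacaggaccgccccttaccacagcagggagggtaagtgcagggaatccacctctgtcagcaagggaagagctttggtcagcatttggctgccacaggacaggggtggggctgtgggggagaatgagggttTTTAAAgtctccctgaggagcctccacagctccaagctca
Klk1b3: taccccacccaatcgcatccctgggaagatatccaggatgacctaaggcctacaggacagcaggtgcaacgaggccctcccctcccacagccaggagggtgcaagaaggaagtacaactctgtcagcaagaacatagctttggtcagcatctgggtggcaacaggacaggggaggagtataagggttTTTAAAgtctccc
The TTTAAA match began 26, 40 and 13 bases before the annotated start of Klk1b26, Klk1b22 and Klk1b3. The motif reads the same on both strands. It occurred in 13.2% of 32817 promoter windows of 300 bases, and in 1.62% between 45 and 16 bases before the start. The Klk1b3 match lies outside that narrower window. Aligned over 161 to 183 bases, with gaps left out, the pairs were 82.6% to 84.7% identical. A promoter was listed for 34 of the 42 called genes.

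Klk1b22 read -4.61, -5.44, -5.19 and -4.86 in control hearts and -1.63, -0.54, -1.62 and -0.36 in AKT2 KO hearts. It was not well above background on any control array and was on all 4 AKT2 KO arrays, so it rose at least 7.84-fold (limma adjusted p = 0.00139). AKT2 KO replicates 2 and 4 were higher than replicates 1 and 3. Klk1b3 also read higher in replicates 2 and 4, with -2.63, -1.30, -2.53 and -1.38 in AKT2 KO hearts against -6.40, -5.97, -5.46 and -4.80 in control hearts. It rose at least 4.13-fold (0.00994), and its call ended without control replicate 2 (0.0509, with 0.0021 to 0.0712 over its alternatives). A bound is the AKT2 KO mean over the lowest signal that counted as well above background, or over the probe's own signal where that was higher. Under normexp the log2 changes were 1.93 for Klk1b22 and 1.51 for Klk1b3. Both are smaller than the bounds, so these bounds hold only under the background correction of the main fit.

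Klk1b26 was well above background in every heart, with -2.92, -3.32, -3.46 and -2.67 in control and -1.90, -1.90, -1.69 and -1.5 in AKT2 KO hearts. It rose by 1.35 ± 0.178 (SE, limma adjusted p = 0.023), and by 0.83 under normexp. The call survived the loss of control replicate 4 and ended without any other array (0.0504 to 0.0937). Of the 26 kallikreins listed, 10 were measured and 3 were called. Of these 10, 5 were kept by the filter through the AKT2 KO arrays alone, which favours rises, 1 through the control arrays alone and 4 through both. The median log2 change of the 10 was 0.51 beside -0.02 over all genes, but -0.01 with no filter and -0.09 with the stricter filter. Klk1b8 had a log2 change of 1.02 (0.311), Klk8 one of 0.01 and Klk10 one of -0.19. Probes of close copies can share RNA, so which copy a kallikrein probe reads is uncertain.

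Genes of potassium channels made up part of the same cluster, and Kcnj14 had the greatest change of all called genes. Kcnj14 encodes an inward rectifier, a channel type that holds the resting potential. It read -1.30, -1.16, -1.40 and -1.42 in control hearts and 3.48, 3.55, 3.63 and 3.67 in AKT2 KO hearts. The log2 change was 4.90 ± 0.0721 (SE, limma adjusted p = 1.42e-08), a ratio of 29.9. A second probe, well above background only in AKT2 KO hearts, rose at least 4.44-fold. Kcnj11, the pore of the ATP-sensitive potassium channel, lies 18.5 Mb from Akt2 beside Abcc8, the sulfonylurea receptor SUR1 of that channel.

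Kcnj11 read 1.95, 1.83, 1.83 and 1.95 in control hearts and 0.80, 0.74, 0.93 and 0.90 in AKT2 KO hearts, and its second probe differed by -1.03. Kcnj11 fell 2.07-fold (log2 change -1.05 ± 0.0605 SE, limma adjusted p = 0.000139). Abcc8 fell less, from 3.84, 3.87, 3.75 and 3.77 to 3.17, 3.07, 3.25 and 3.2 (log2 change -0.64 ± 0.055, 0.00185). Both calls ended in the fit of all 16 arrays and held in all other alternatives that used both slides. The other subunits of cardiac ATP-sensitive channels, on chromosome 6, had log2 changes of -0.18 for Abcc9 (0.512) and -0.05 for Kcnj8 (0.814). Of 27 measured ion channel genes of the heart, Kcnj14 rose, Kcnj11 fell and 25 did not pass the test, with a list median of -0.07.

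**Figure D2:**
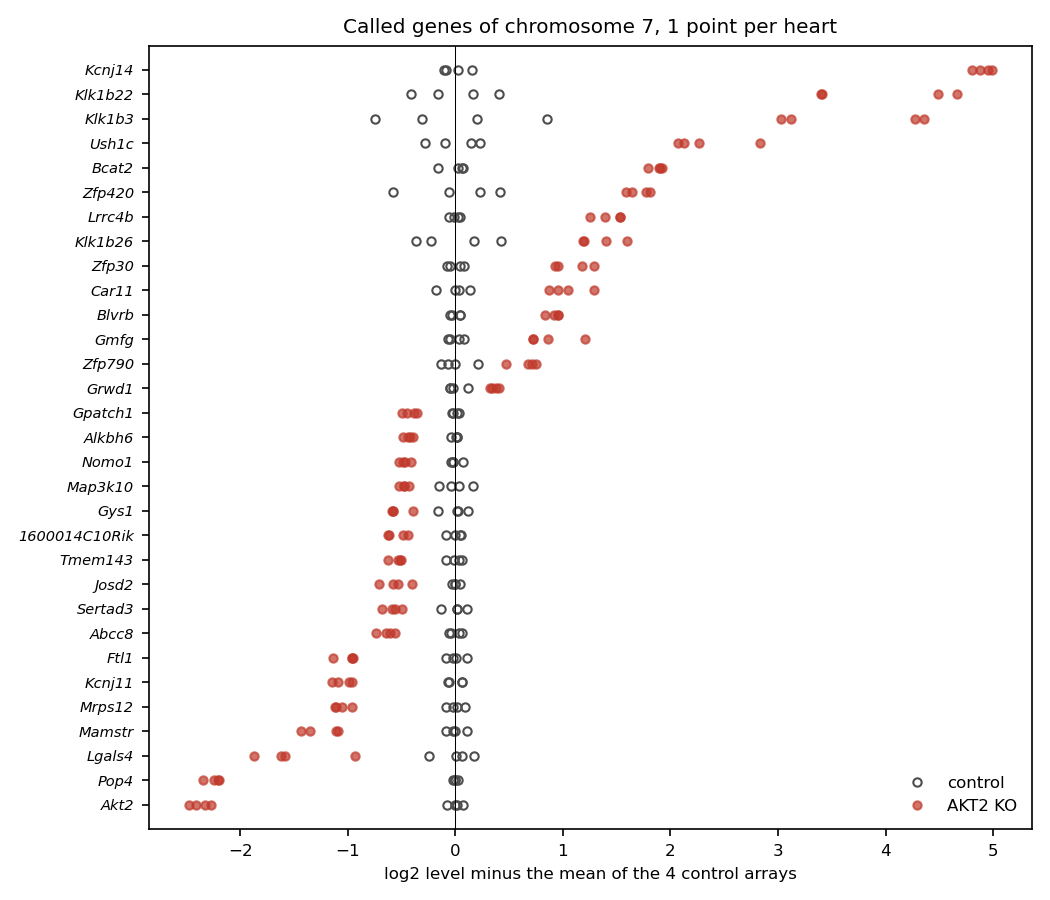
Each heart's log2 level minus the mean of the 4 control hearts (x axis) for the 31 called genes of chromosome 7 (y axis), with open circles for control and filled circles for AKT2 KO hearts. In every gene the 4 filled circles lie on 1 side of the 4 open ones, from Kcnj14 at the top to Akt2 at the bottom.

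Genes of metabolism and iron storage were called in the same cluster. Bcat2, the mitochondrial aminotransferase for leucine, isoleucine and valine, read 2.85, 2.84, 2.62 and 2.81 in control hearts and 4.68, 4.70, 4.67 and 4.57 in AKT2 KO hearts. The rise was 3.67-fold (1.88 ± 0.0636 SE in log2, limma adjusted p = 3.55e-06), and its second probe rose by 1.47. The other 27 measured genes of branched-chain amino acid breakdown did not pass, and the list median was -0.07. Among them Bckdha, a subunit of the dehydrogenase of the next step, had a log2 change of -0.08 and Ppm1k, the phosphatase of that complex, one of -0.06.

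Ftl1, the ferritin light chain that helps store iron, read 7.18, 7.31, 7.21 and 7.11 in control hearts and 6.25, 6.24, 6.07 and 6.24 in AKT2 KO hearts. It fell 2.0-fold (SE 0.0638 log2 units, limma adjusted p = 0.00027), and its second probe fell by 1.33. Fth1, the heavy chain on chromosome 19, had a log2 change of -0.06 (0.701). In the list of iron, ferritin and heme genes Blvrb rose, Ftl1 fell and 25 of 27 did not pass (median -0.03). Gys1, the muscle glycogen synthase, read 3.78, 3.68, 3.50 and 3.68 in control and 3.26, 3.08, 3.07 and 3.08 in AKT2 KO hearts. The groups did not overlap, and Gys1 fell by 0.54 ± 0.0743 (0.0279). The Gys1 call was kept only without control replicate 3 or AKT2 KO replicate 1, and ended without each of the other 6 arrays (0.0673 to 0.123).

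The cluster held further genes of several roles. Mamstr, which works with MEF2 to switch on muscle genes, read -1.87, -1.76, -1.89 and -1.96 in control and -2.98, -3.31, -3.22 and -2.96 in AKT2 KO hearts, and fell by 1.25 ± 0.0902 (SE, limma adjusted p = 0.000621), or by 0.76 under normexp. Ush1c, the scaffold protein harmonin of hair cells, read -1.29, -0.97, -1.04 and -1.47 against 0.94, 1.64, 1.08 and 0.88, a 5.01-fold rise (0.00101). Lrrc4b, a synaptic adhesion protein, read 3.36, 3.30, 3.26 and 3.34 against 4.71, 4.85, 4.85 and 4.57, a 2.69-fold rise (6.24e-05). In all 3 genes the difference was many times the spread within a group. Car11, a carbonic anhydrase-related protein, rose by 1.04 ± 0.101 (0.00393).

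Smaller falls were those of Tmem143, a transmembrane protein, by 0.54 (limma adjusted p = 0.00368), of Nomo1, a protein of the endoplasmic reticulum membrane, by 0.47 (0.00451), and of Josd2, a deubiquitinase, by 0.55 (0.0135). Nomo1 did not pass with the replicate block (0.0502, with 0.000354 to 0.074 over its alternatives), nor did Josd2 (0.0821). Josd2 also failed without any control array or AKT2 KO replicate 3 (0.0509 to 0.0675). Grwd1, a WD-repeat protein of ribosome assembly, rose by 0.36 (0.0366). The Grwd1 call ended with the replicate block (0.117) and without any array other than control replicate 2 (0.0622 to 0.178).

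Outside chromosome 7 the changes were fewer and smaller, with 6 genes higher and 5 lower. Lipa, the lysosomal acid lipase that frees cholesterol and fatty acids in lysosomes, was the only one of them to change 2-fold. It read 0.40, 0.39, 0.29 and 0.30 in control hearts and 1.55, 1.24, 1.29 and 1.34 in AKT2 KO hearts. All AKT2 KO hearts were well above the controls, and the rise was 2.01-fold (1.01 ± 0.0725 SE in log2, limma adjusted p = 0.000621). The call held whichever array was left out, and with the replicate block (0.00797), but not when all 16 arrays shared the spread (0.074, with 3.05e-05 to 0.074 over its alternatives). Of its chromosome 19 neighbours, Ifit2, Ifit3 and Ifit1, interferon-induced genes within 0.14 Mb, had log2 changes of 0.18, -0.26 and 0.06 with limma adjusted p of 0.544, 0.598 and 0.919. Its nearest measured neighbour Ch25h, which makes 25-hydroxycholesterol, had a log2 change of 0.49 (0.386), and the death receptor gene Fas one of -0.33 (0.24), with groups that did not overlap. Lipo3, a lipase gene 0.937 Mb away, fell by 0.50 on its brightest probe (0.0118) and read 0.02 on a second probe. The Lipo3 call ended with the replicate block (0.0971), with the mean of its probes, and without control replicate 1 or 4 (0.0538 and 0.0675).

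Secreted and immune proteins were among the rises. Serpina3n, an acute-phase protease inhibitor on chromosome 12, read -2.37, -2.74, -2.26 and -2.33 in control and -1.61, -1.67, -1.59 and -1.74 in AKT2 KO hearts, a rise of 0.77 ± 0.104 (SE, limma adjusted p = 0.0242). C4a, a complement gene of chromosome 17, read -3.60, -3.55, -3.69 and -3.44 against -2.73, -2.67, -3.02 and -2.91, a rise of 0.74 ± 0.0904 (0.014) that was 0.31 under normexp. C4a was well above background on 2 control arrays. Its close copy C4b had a log2 change of 0.60 (0.224), and how far the probes tell these copies apart is uncertain. The Serpina3n call ended with the replicate block (0.0604). It also ended when a control array (replicate 1 or 4) or an AKT2 KO array (replicate 1, 2 or 3) was dropped (0.0658 to 0.0988). The C4a call ended on dropping control replicate 1, 2 or 3 (0.0552 to 0.0714) and with normexp, quantile normalization, the deposited values or a trended prior. Sfrp1, a secreted antagonist of Wnt proteins on chromosome 8, rose by 0.34 (0.0327) and Fcrl5, an Fc receptor-like protein of B cells on chromosome 3, by 0.32 (0.0339). Rimkla, which joins glutamate to N-acetylaspartate, rose by 0.88 (0.023). Under normexp the changes were 0.17 for Sfrp1 and 0.53 for Rimkla.

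Ppp1r3c, which brings protein phosphatase 1 to glycogen, read 3.54, 3.39, 3.41 and 3.53 in control and 3.09, 3.15, 3.15 and 3.05 in AKT2 KO hearts. The groups did not overlap, and Ppp1r3c fell by 0.36 ± 0.0532 (SE, limma adjusted p = 0.0406). Tmf1, a Golgi protein, fell by 0.35 (0.0268), with a change of -0.06 on its second probe. A pair of genes without proper names also fell, 2310075K07Rik by 0.64 (0.00452) and 1700017M07Rik by 0.61 (0.0295), the latter by 0.37 under normexp. The probe of 1700017M07Rik passed the filter on dim probes through the arrays of a single group, so the filter may favour its change. The calls of Sfrp1, Fcrl5, Tmf1 and Ppp1r3c ended without any single array (0.0525 to 0.186). Those of Rimkla and 1700017M07Rik ended in 7 of 8 such fits, all but those without AKT2 KO replicate 2 and 3, respectively (0.0509 to 0.119). With the replicate block these 6 stood at 0.107 to 0.156. Outside chromosome 7 the count of 11 calls was 2 without control replicate 1, 5 without control replicate 2 or 3, 3 without control replicate 4, 6 without AKT2 KO replicate 3 and 20 without AKT2 KO replicate 4. It was 0 when all 16 arrays entered the limma fit, where 345 of 12632 genes had an unadjusted p under 0.05.

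**Figure D3:**
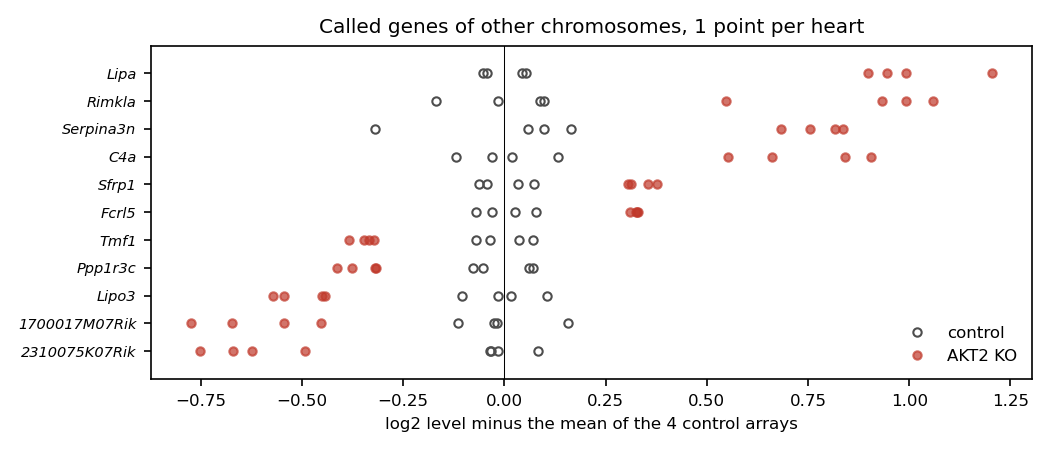
Each heart's log2 level minus the mean of the 4 control hearts (x axis) for the 11 called genes of chromosomes other than 7 (y axis), with open circles for control and filled circles for AKT2 KO hearts. Lipa, at the top, is the only gene whose mean lies beyond 1 log2 unit.

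Over all genes tested 0.315% were called and 11.9% had an unadjusted p under 0.05. At the first share most gene lists of the sizes used here would hold no call. A list without a call is therefore no result about that list. Of 34 listed genes from the insulin and IGF1 receptors to AKT, 32 were measured and 1 was called, Akt2 itself, with a list median of -0.03. Insr, the insulin receptor, had a log2 change of 0.04 (limma adjusted p = 0.749) and the adaptor Irs2 one of 0.01 (0.988). None of 29 measured AKT substrates and mTORC1 genes was called by limma, 8 with an unadjusted p under 0.05, and their median was -0.03. Tbc1d4, the substrate that links AKT to GLUT4 traffic, had a log2 change of -0.20 (0.318), and Slc2a4, which encodes GLUT4, one of -0.11 (0.471).

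FoxO targets rise when AKT signalling falls in many tissues. Of 29 FoxO targets and atrogenes none was called by limma and 4 had an unadjusted p under 0.05, with a median of -0.06. Ddit4, an inhibitor of mTORC1 and the list's smallest p, read 3.96, 3.79, 3.73 and 3.91 in control and 3.03, 2.89, 3.47 and 3.2 in AKT2 KO hearts. The groups did not overlap, but its log2 change of -0.70 did not pass (limma adjusted p = 0.0882). Pdk4, a FoxO target that restrains pyruvate oxidation, read 5.90, 5.31, 5.36 and 5.57 in AKT2 KO hearts, which overlapped the control hearts at 4.82, 5.76, 5.31 and 4.44. Map3k10 was the only call of 29 MAP kinase and JNK pathway genes (median -0.01). None of 22 immediate early genes was called by limma, 2 with an unadjusted p under 0.05 (median -0.02).

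The lists of energy metabolism had medians slightly below 0. The lowest medians of the metabolic lists were -0.12 for 41 oxidative phosphorylation genes and -0.11 for 33 genes of fatty acid uptake and oxidation. No gene of either list was called by limma, and 6 and 12 had an unadjusted p under 0.05, which 11.9% of all genes had. Ndufa8, a complex I subunit, had the smallest p of the first list, with a log2 change of -0.21 (limma adjusted p = 0.224). Medians were -0.08 for 28 pyruvate dehydrogenase and tricarboxylic acid cycle genes (0 called, 6 with an unadjusted p under 0.05) and -0.03 for 24 genes of sterol and fatty acid synthesis (0 and 3). Among 31 genes of glucose transport, glycolysis and glycogen only Gys1 was called (median -0.09), while Gyg, the glycogen primer, and Pygm, glycogen phosphorylase, had log2 changes of -0.06 and -0.04. Mamstr was the only call of 26 PPAR, ERR and PGC-1 regulators (median -0.05). The oxidative phosphorylation median was -0.17 on slide 1 and -0.05 on slide 2, and -0.04 under its smallest scaling alternative.

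Genes of contraction did not pass the test, where 0.315% of all genes were called and 11.9% had an unadjusted p under 0.05. Medians were -0.09 both for 28 sarcomere and Z-disc genes and for 23 calcium handling genes, with 0 called by limma in each and 4 and 8 with an unadjusted p under 0.05. The sarcomere median was 0.01 under another scaling of the arrays. Casq2, the calcium-binding protein of the sarcoplasmic reticulum, had a log2 change of -0.22 (limma adjusted p = 0.29). The list of fetal and stress genes had a median of 0.10, with 0 of 24 called by limma and 4 with an unadjusted p under 0.05, and the median was 0.02 without AKT2 KO replicate 2 and 0.06 without AKT2 KO replicate 3. Nmrk2, a muscle nicotinamide riboside kinase, read 1.52, 1.06, 1.89 and 2.44 in AKT2 KO hearts against 0.78, 0.26, 0.91 and 0.86 in control hearts. Its groups did not overlap, but the log2 change of 1.02 did not pass (0.281). Myh7, the slow myosin heavy chain, read 5.95, 8.04, 8.03 and 7.20 in AKT2 KO hearts, on both sides of the controls at 6.83 to 7.26.

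Stress, matrix and immune lists are set beside the same shares over all genes, 0.315% called and 11.9% with an unadjusted p under 0.05. The medians were -0.07 for 28 oxidative stress genes, 0.01 for 27 genes of the ATF4 branch and unfolded protein response, 0.02 for 24 apoptosis regulators and -0.07 for 29 autophagy genes. None of these was called by limma, and 4, 4, 1 and 9 had an unadjusted p under 0.05. Collagens and matrix had a median of 0.09, with 0 of 31 called by limma and 4 with an unadjusted p under 0.05, and the median was 0.02 without AKT2 KO replicate 1 and 0.05 without control replicate 4. Lox, which crosslinks collagen, read -2.31, -2.26, -2.25 and -2.37 in control and -1.87, -1.94, -1.95 and -2.05 in AKT2 KO hearts. The groups did not overlap, and its log2 change of 0.35 missed the threshold (limma adjusted p = 0.0575). Interferon response genes had a median of 0.12, with 0 of 25 called and 1 with an unadjusted p under 0.05, and that median was 0.31 on slide 1 and -0.07 on slide 2, and 0.05 to 0.21 with 1 array left out, lowest without AKT2 KO replicate 1 and highest without AKT2 KO replicate 3.

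**Figure D4:**
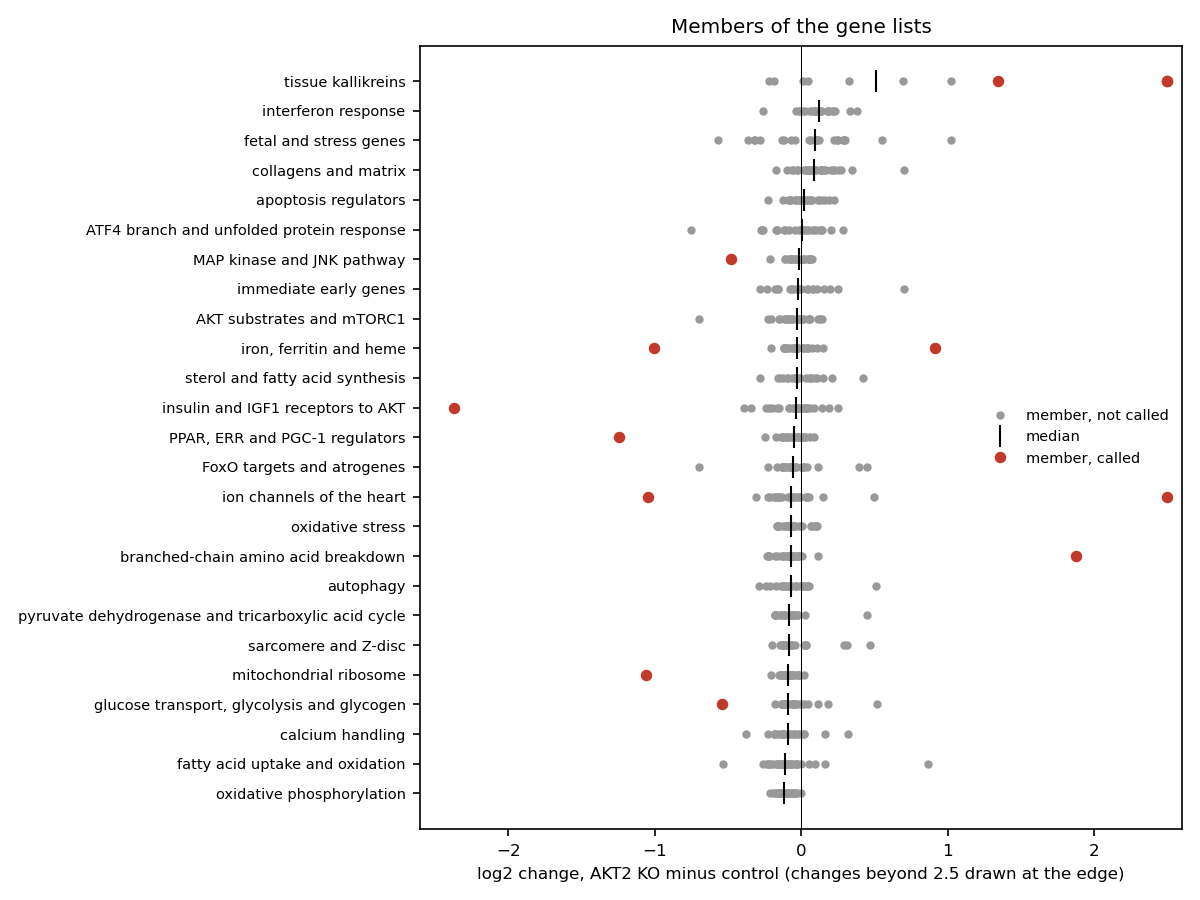
Log2 change between AKT2 KO and control hearts (x axis) of each measured member of the 25 gene lists that are not cell type markers (y axis), ordered by median, with called members in red, others in grey and a bar at the median. Changes beyond 2.5 are drawn at the edge. All medians other than that of the kallikreins lie between -0.12 and 0.12.

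The heart label was borne out by its markers. The cardiomyocyte markers were all measured, 0 of 8 called by limma and 1 with an unadjusted p under 0.05 (median -0.11, or 0.02 with the deposited values), with Myh6, the main myosin heavy chain, at 9.38, 9.16, 9.22 and 9.35 in control and 9.15, 9.04, 9.09 and 9.34 in AKT2 KO hearts. Their summed intensity, relative to the 75th percentile of the array, was 2758 to 3208 in control and 2670 to 2975 in AKT2 KO hearts. None of the 66 measured members of the other 11 marker lists was called by limma, and 7 had an unadjusted p under 0.05. Summed levels of the 9 fibroblast (median 0.07), 9 endothelial (0.06), and 9 smooth muscle and pericyte markers (-0.01) overlapped between the groups, as did those of the 9 macrophage markers (0.10, or -0.02 without AKT2 KO replicate 1), which reached 44.2 in AKT2 KO and 35.3 in control hearts. The same held for 5 of 8 atrial (0.29, but -0.13 on slide 1 and 0.05 without AKT2 KO replicate 3, 0.13 without AKT2 KO replicate 2 and 0.18 without control replicate 2), 5 of 10 lymphocyte (0.07, or -0.17 without AKT2 KO replicate 1 and 0.27 without AKT2 KO replicate 4), 5 of 8 erythroid (-0.03), 3 of 8 adipocyte (-0.12) and 2 of 7 mesothelial and epicardial markers (-0.04). Between slide 1 and slide 2 several more medians changed sign. They were 0.32 and -0.13 for macrophage, 0.55 and -0.15 for lymphocyte and 0.25 and -0.30 for erythroid markers. For smooth muscle and pericyte markers they were -0.10 and 0.05, and for mesothelial and epicardial markers 0.03 and -0.11. The fibroblast, endothelial and adipocyte medians kept their sign. The atrial markers Sln, Bmp10 and Mybphl and the adipocyte markers Adipoq, Plin1 and Cidec did not pass the filter on dim probes.

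A pair of marker sums did not overlap. The 3 of 7 neutrophil markers measured had a median of 0.92 and summed to 46.6 to 58.2 in control and 60.2 to 92.0 in AKT2 KO hearts. Most of that sum was Csf3r, at 0.36 (limma adjusted p = 0.407), while Ly6g, Retnlg, Camp and Ngp did not pass the filter. S100a9, a calcium-binding protein of neutrophils, read 2.63, 1.57, 0.84 and 0.12 in AKT2 KO hearts against 0.59, 0.38, -0.78 and 0.64 in control hearts, which overlap. The neutrophil median was 1.47 on slide 1 and 0.37 on slide 2, 0.47 without AKT2 KO replicate 1 and 0.56 without control replicate 3. Serpina3n, C4a and Gmfg were higher in the same hearts, and the part of these cells in those rises was not tested. The 7 of 8 Schwann and neuronal markers measured had a median of -0.04 and summed to 5.55 to 5.72 in control and 4.15 to 4.81 in AKT2 KO hearts. That median was -0.35 on slide 1 and 0.29 on slide 2. Changes of the members ran from -0.72 to 0.41. The brightest member was Dbh, so the sum leans on it. In that list Dbh, which makes noradrenaline, read 1.43, 0.64, 0.53 and 0.86 in AKT2 KO hearts and 1.48, 1.63, 1.55 and 1.70 in control hearts (log2 change -0.72, 0.224).

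A second comparison in the series differs by the same floxed alleles and shares none of the 8 arrays. It sets DKO hearts, homozygous for both the AKT1 and AKT2 floxed alleles, against AKT1 KO hearts, homozygous for the AKT1 floxed allele, all with MHC-mercremer and the same induction. Its limma fit called 30.9% of 13567 genes, so a call there is common. Of the 42 genes called in AKT2 KO hearts, 36 had the same direction there, 24 were called the same way and 3 were called the opposite way. On chromosome 7, 28 of 31 had the same direction and 20 were called so, against 8 and 4 of the 11 genes elsewhere.

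Kcnj14 read -3.45, -2.85, -2.5 and -2.85 in AKT1 KO hearts and 1.29, 2.54, 2.00 and 1.02 in DKO hearts, a log2 change of 4.62 beside 4.90 in the single knockout. Mamstr changed by -1.27 beside -1.25, and Kcnj11 by -1.36 beside -1.05. Lipa read 1.07, 1.24, 1.49 and 1.28 in AKT1 KO hearts and 2.24, 1.65, 2.57 and 1.38 in DKO hearts (log2 change 0.69, limma adjusted p = 0.0641). Its AKT1 KO levels were thus near those of AKT2 KO hearts, and the DKO hearts were spread more widely. Ppp1r3c read 3.36, 3.65, 3.45 and 3.47 in AKT1 KO and 2.36, 2.14, 0.83 and 2.53 in DKO hearts, a fall of 1.51 (0.0103).

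The difference between the changes of the 2 comparisons passed the limma test for 19 of the 42 genes, where 26% of 13725 genes passed. Klk1b26 rose by 1.35 in AKT2 KO hearts. In the other comparison it read -1.71, -1.43, -1.94 and -2.42 in AKT1 KO hearts and was not well above background on any DKO array, so it fell at least 4.79-fold. Its neighbours Klk1b22 and Klk1b3 rose in both. Klk1b3 was below background on all AKT1 KO arrays and rose at least 2.88-fold in DKO hearts, and Klk1b22 had a log2 change of 2.34 from a level well above background on 2 of 4 AKT1 KO arrays. Lrrc4b, which rose in AKT2 KO hearts, fell by 0.73 in DKO hearts (limma adjusted p = 0.0299), and Ush1c had a log2 change of 0.56 there (0.253) beside 2.32. Ftl1, which fell 2.0-fold in AKT2 KO hearts, had a log2 change of -0.03 there (0.926). Fcrl5, the third gene called the opposite way, fell by 0.75 (0.00317).

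**Figure D5:**
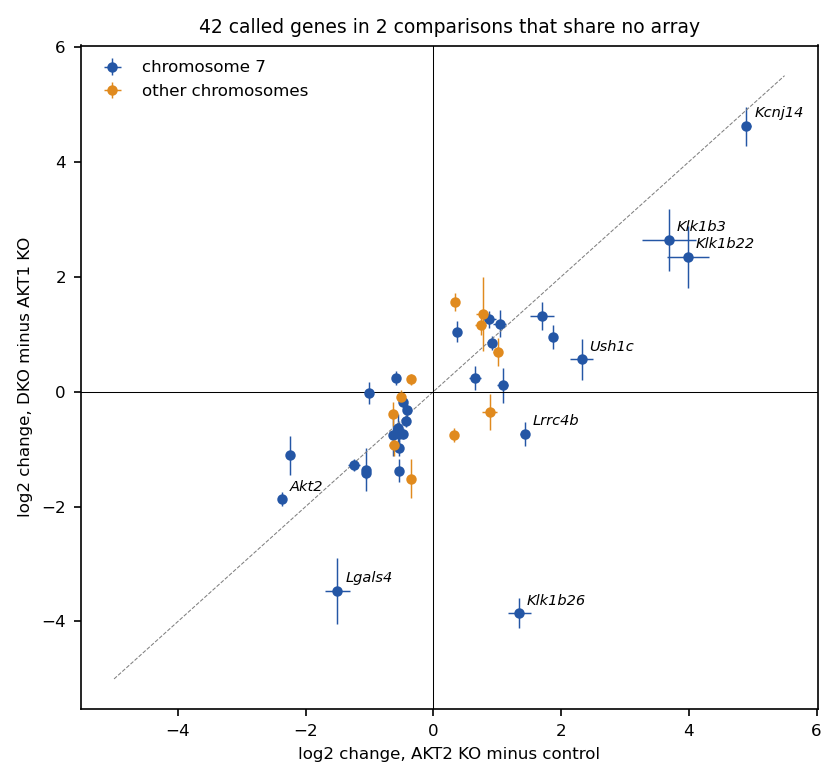
Log2 change of the 42 called genes in AKT2 KO minus control hearts (x axis) and in DKO minus AKT1 KO hearts (y axis), with standard errors as bars, chromosome 7 in blue, other chromosomes in orange and a dashed line where both are equal. Kcnj14 lies near the line at 4.90 and 4.62, whereas Klk1b26, drawn at its fitted change although below background in DKO hearts, lies far below it.

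Probes without a gene symbol were tested apart. Of 6643 such probes 16 were called (0.241%), 6 higher and 10 lower in AKT2 KO hearts. The probe for AK193034 fell from 4.34 to 1.97 (log2 change -2.37 ± 0.0496 SE, limma adjusted p = 4.63e-07), and that for NM_010707 from 0.95 to -0.28 (0.0167). The probe for AF089734 rose from 3.98 to 4.66 (0.0151). Other probes of called genes mostly moved with the brightest. For 16 of the 42 genes 19 further probes were kept, 16 of them with the same sign as the brightest, and all 9 that were called had that sign. Those of the opposite sign were the second Lipo3 probe and both further Map3k10 probes.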

How the data were processed

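Total RNA (100 ng) from each heart apex was labelled with Cy3 and hybridised to 1-colour Agilent arrays. Per the file headers, spot intensity values come from Agilent Feature Extraction, version 12.0.3.1, which subtracts background. The authors also deposited normalized log2 values, which served as an alternative. Chromosomes, distances and symbols came from GRCm38.p6 through RefSeq accessions (32994 of 56605 probes, 22911 symbols).

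Values were log2 of the processed signal minus the array's 75th percentile. Probes with outlier flags (118) were dropped, a probe stayed if well above background throughout control or AKT2 KO arrays (25275 did), and the brightest probe of a symbol was used. The test was limma 3.58.1 under R 4.3.3 (the data.table package, version 1.17.8; 6 residual and 2.30 prior degrees of freedom) with Benjamini-Hochberg adjustment over all genes and a threshold of 0.05. The fit was tested on simulated data: over 13341 genes it recovered 50 of 50 genes changed by 2 log2 units, 44 of 50 by 1, 33 of 50 by 0.5 and 19 of 50 by 0.3, and called 11 unchanged genes. Noise in the simulation was independent between arrays, whereas same-numbered arrays of the data deviated together. More genes were called in the simulation than in the data, which eases the adjusted threshold. Recovery in the data may therefore be lower. The number of arrays limits the precision.

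In control and AKT2 KO arrays replicate numbers coincide with slide and row. Same-numbered arrays deviated together (correlations 0.160 to 0.390, against up to 0.196 between different numbers, which exceeds pair 3's own). The main fit had no block for these pairs, so its SE and p-values ignore them. The replicate block was an alternative, in which 16 of the 42 calls ended. Blocked values stand beside results that they change. Named genes were Akt1 and Akt2, all called genes of other chromosomes and the 10 with the smallest p there, the 15 largest rises and falls on chromosome 7, called members of lists, and otherwise the 2 brightest members and the smallest p of a list; other members are named for their role, and some genes that the rule selects are not reported here. The comparison, the 37 gene lists and the rule were chosen with earlier results of these data known. Alternatives were other background correction (normexp, offset 50), scaling, filters, probe rules, priors, weights, blocks, samples in the fit and leaving out each array.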

Additional observations from a re-analysis of the deposited data

Results flagged for a closer look

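Of 240 groups of 4 arrays checked for the named genes, 9 held an array far from the other 3, where chance gives about 1 in 20. In control hearts these were Alkbh6 in replicate 3 (2.85, others 2.90 to 2.91), Atf6 in replicate 3 (2.02, others 2.12 to 2.13), Cd4 in replicate 2 (1.15, others 1.54 to 1.59), Grwd1 in replicate 2 (0.55, others 0.39 to 0.41), Nomo1 in replicate 1 (4.73, others 4.62 to 4.64) and Timp2 in replicate 3 (5.05, others 5.13 to 5.14). In AKT2 KO hearts they were Ftl1 in replicate 3 (6.07, others 6.24 to 6.25), Gys1 in replicate 1 (3.26, others 3.07 to 3.08) and Nebl in replicate 1 (2.58, others 2.35 to 2.39).

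For 19 called genes the change in DKO minus AKT1 KO hearts differed from that in AKT2 KO minus control hearts by the limma test of the difference. The log2 difference between the changes was -5.20 for Klk1b26 as fitted, which is no measured size because no DKO array read it well above background. It was -2.16 for Lrrc4b, -1.97 for Lgals4, -1.76 for Ush1c, -1.23 for Rimkla, -1.16 for Ppp1r3c, -1.08 for Fcrl5, -0.98 for Zfp30, -0.92 for Bcat2, -0.83 for Tmem143 and -0.44 for 1600014C10Rik. It was 1.22 for Sfrp1, 1.14 for Pop4, 0.98 for Ftl1, 0.81 for Sertad3, 0.68 for Grwd1, 0.57 for Tmf1, 0.50 for Akt2 and 0.41 for Lipo3. The DKO hearts varied more among themselves than the AKT2 KO hearts did in many of these genes, for example 0.81 against 0.0689 (SD, n = 4) for Pop4.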

How the results depend on the processing

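The Akt2 change was called in every alternative, between -2.02 and -2.40. Over the 22 alternatives, the 122 genes followed, other than Akt2, gave 2655 values. Of these 2372 stayed on their side of the threshold, 277 lost the call and 6 gained it. No gene called in the main fit or the alternative changed direction, while direction was not scored for genes called in neither. Only called genes, a minority of those followed, could lose a call, so all 277 losses fell on them. Of the 42 calls, 21 held whichever array was left out (19 on chromosome 7). In all alternatives that tested them, other than those of a single slide, 11 held. Among these 11, Klk1b22 was not tested under the stricter filter on dim probes.

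The count of 42 was 19 without the filter on dim probes (17 on chromosome 7, 2 elsewhere), 18 with all 16 arrays (18 and 0), 9 within slide 1 (5 and 4) and 5 within slide 2 (5 and 0, where 808 limma tests elsewhere had an unadjusted p under 0.05), and 18 with a change of at least 2-fold asked as well (17 and 1). With the replicate block it was 32, of which 26 were among the 42, and 16 calls ended (0.0502 to 0.156). Leaving out 1 array gave 24 to 53 calls, 22 to 33 on chromosome 7 and 2 to 20 elsewhere. Calls elsewhere were 6 with normexp, 7 with quantile normalization and the deposited values, and 21 with a trended prior. The probes without a symbol called were 7 without the filter and 8 to 19 with 1 array left out. The genes called the same way in DKO hearts were 10 without the filter and 14 to 27 with 1 array left out. The cause of these shifts was not tested, but fits with fewer arrays have fewer degrees of freedom. With the deposited values, normalized by the authors, 36 of the 42 were called. Signal over background limits Klk1b22, Klk1b3, Zfp420 and C4a, which were dim in control hearts. The stricter filter dropped these genes and 1700017M07Rik before the test, and its 37 calls were all among the 42.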
